A study of Mus musculus with 8 samples.

Results

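DNA methylation was examined at the ends of 56 mouse genes that encode developmental transcription factors: members of the Sox, T-box, forkhead (Fox), Gata and basic helix-loop-helix (bHLH) families, together with the zinc finger factors Zic, Gli and Wt1. The genes were taken by name. For each gene, a window from 1000 bp outside to 500 bp inside was set at its lower and at its higher coordinate, and the reads of every CpG cytosine in the window were summed. A window was kept where at least 3 cytosine positions carried a read and at least 20 reads were summed in each of the 8 libraries, a rule that uses depth and not methylation. It kept 52 of 112 member gene ends, which belong to 42 of the 56 genes, and 14621 gene ends over all genes. Both ends were kept for 10 genes and 1 end for 32, and the other 14 (Sox1, Sox10, Sox18, Tbx15, Tbx18, Foxa2, Gata4, Gata5, Neurog3, Neurod1, Neurod2, Olig3, Hand2 and Zic5) had none. Of the 60 windows not kept, 33 held no position at all. Just inside the rule were the Gata3 end, with 3 positions and 35 reads in its thinnest library, and the lower end of Sox8, with 36 reads. Just outside were the lower end of Sox18, with 2 positions in a library, and the higher ends of Sox18 and Zic5, with 9 and 12 reads. Strand, as given for 39 members in the RefSeq promoter table, placed 29 of the kept ends at the start of the gene and 6 at its tail. For the other 17 the end is named by its coordinate, as the lower or the higher end. A start window lies at the outermost start of the gene, which need not be the listed RefSeq promoter. The listed promoters of Tbx4, Gli2, Foxa1, Zic4 and Gata3 lie outside their start windows. The window of 17 kept ends overlaps the kept window of another gene.

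The libraries were made from I1DN leukemic progenitors, cKit positive and Cd11b negative, taken from transplanted mice that were treated for 5 days. The 4 groups, with 2 libraries each, were Vehicle, AG120, AZA and both drugs together, here the combination. AG120 is ivosidenib, which inhibits IDH1 in its mutant form, and AZA is azacitidine, a nucleoside that depletes DNA methyltransferases. Every group, Vehicle included, carried the same transplanted leukemia. The labels do not say whether the libraries of a group came from separate mice, so the spread between them may be technical.

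Most of these factors are switched on in set embryonic tissues, and in myeloid blood cells their genes are largely silent. Their starts typically lie in CpG-rich stretches that Polycomb complexes hold inactive without DNA methylation in normal cells, and starts of this kind are known to gain methylation in many cancers. Mutant IDH1 produces a metabolite that blocks the TET enzymes, which remove methyl groups from cytosine. In reduced representation bisulfite sequencing (RRBS), restriction fragments from CpG-rich DNA are read after bisulfite treatment, and the methylation level of a window is the percent of its reads that called the cytosine methylated. In a pool of cells, such a level does not tell methylation of a share of the cells from methylation of a share of the alleles. Nor does it tell either from a mix of methylated and unmethylated cytosines along the window.

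Of 42 RefSeq promoters of the members (300 bases each, from 250 before to 50 after the start), 7 carried at least 100 reads in every library. The 3 with the highest and the 3 with the lowest mean level among them are shown. They span from a mean of 36.4% over the 8 libraries (Foxd3) to 0% (Gata3). Coordinates are those of GRCm38.p6, the sequence runs 5′ to 3′ on the strand of the gene, and capitals mark each CG read in at least 4 libraries.
Foxd3, chr4:99656049-99656348, plus strand: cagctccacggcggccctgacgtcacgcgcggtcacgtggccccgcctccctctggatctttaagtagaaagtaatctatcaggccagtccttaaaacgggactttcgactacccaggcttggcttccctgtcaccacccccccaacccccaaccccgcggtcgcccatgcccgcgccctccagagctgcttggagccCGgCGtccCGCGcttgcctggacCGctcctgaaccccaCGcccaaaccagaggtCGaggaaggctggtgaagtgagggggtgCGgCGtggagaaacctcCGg
Sox14, chr9:99876121-99876420, minus strand: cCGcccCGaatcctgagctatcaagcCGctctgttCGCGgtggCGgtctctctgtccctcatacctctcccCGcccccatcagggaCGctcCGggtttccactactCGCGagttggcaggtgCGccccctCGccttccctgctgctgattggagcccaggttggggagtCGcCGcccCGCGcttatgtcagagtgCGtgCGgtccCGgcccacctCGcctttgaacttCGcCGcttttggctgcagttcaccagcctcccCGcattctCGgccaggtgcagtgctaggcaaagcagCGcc
Foxl2, chr9:98955357-98955656, plus strand: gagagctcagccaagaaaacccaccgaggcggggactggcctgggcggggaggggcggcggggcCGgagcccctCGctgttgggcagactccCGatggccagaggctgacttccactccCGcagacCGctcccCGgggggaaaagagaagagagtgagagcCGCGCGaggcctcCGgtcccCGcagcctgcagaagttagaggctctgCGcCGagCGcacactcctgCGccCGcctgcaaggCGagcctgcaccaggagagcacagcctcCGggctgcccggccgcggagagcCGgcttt
Ascl2, chr7:142969215-142969514, minus strand: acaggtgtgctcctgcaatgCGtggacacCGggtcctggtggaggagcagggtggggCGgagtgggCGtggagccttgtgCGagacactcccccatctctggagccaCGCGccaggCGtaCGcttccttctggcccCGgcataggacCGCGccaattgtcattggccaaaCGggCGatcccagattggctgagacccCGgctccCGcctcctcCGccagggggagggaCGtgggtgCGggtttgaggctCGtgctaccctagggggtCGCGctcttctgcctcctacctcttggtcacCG
Sox21, chr14:118236981-118237280, minus strand: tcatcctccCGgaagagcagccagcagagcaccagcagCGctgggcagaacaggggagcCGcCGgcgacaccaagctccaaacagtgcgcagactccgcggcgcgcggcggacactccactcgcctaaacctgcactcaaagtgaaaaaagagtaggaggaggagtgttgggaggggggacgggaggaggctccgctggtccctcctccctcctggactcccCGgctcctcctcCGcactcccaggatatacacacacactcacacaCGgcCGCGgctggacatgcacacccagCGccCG
Gata3, chr2:9878551-9878850, minus strand: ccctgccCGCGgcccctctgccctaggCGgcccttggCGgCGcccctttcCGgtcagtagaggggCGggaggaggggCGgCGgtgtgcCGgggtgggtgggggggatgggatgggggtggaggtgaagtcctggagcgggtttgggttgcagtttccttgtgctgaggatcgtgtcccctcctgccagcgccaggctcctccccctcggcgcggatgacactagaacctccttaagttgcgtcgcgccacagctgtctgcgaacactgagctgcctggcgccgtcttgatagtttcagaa

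Foxd3, a regulator of neural crest and pluripotent cells, had 25 CpG in this promoter, of which 10 were read in at least 4 libraries. The promoter level was 82.3% and 20.2% in the Vehicle libraries, 11.4% and 65.9% with AG120, 15.1% and 19.6% with AZA and 11.1% and 65.8% with the combination. 1 library each of Vehicle, AG120 and the combination was therefore high, and the replicates of these groups stood farther apart than the group means. Sox14, a SoxB factor of interneuron development, had all 26 of its CpG read, at 27.9% and 41.1% in Vehicle, 25% and 38.3% with AG120, 10.8% and 2.86% with AZA and 16.6% and 2.65% with the combination. The 4 libraries with AZA lay below the 4 without it, from at least 280 reads each, whereas in the wider Sox14 start window the combination libraries were at 56.7% and 26.3% and the AZA libraries at 14.5% and 20.7%. Foxl2, a factor of the ovary, stayed under 10% in 7 libraries and was at 32.8% in AG120 replicate 2.

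Ascl2, a bHLH factor of trophoblast and intestinal stem cells, was between 0% and 12.5%, with 0% (upper limit 0.526%, 3 counts of the total) and 0.146% in the AG120 libraries. Sox21, a SoxB repressor, was at 3.84% and 11.7% in Vehicle, at 15.7% and 4.95% with the combination and at 0% in the 4 libraries of AG120 or AZA alone, with upper limits from 0.143% to 1.33%. No methylated read fell in the Gata3 promoter in any library, with upper limits from 0.178% to 0.809%. Of its 22 CpG, 10 were read in at least 4 libraries, all in the upstream part. Gata3 is the Gata factor of T cells, and the promoter of this RefSeq transcript lies within the gene, downstream of the kept window, which is at the outermost start of the gene on the minus strand. Across the 42 member promoters the median number of CpG was 22.5, against 7 in 32851 mouse promoters, and 34 (81.0%) held at least 15 CpG against 34.6% of all.

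Each library held between 90373925 and 130796962 calls at CpG cytosines. The 4 libraries with AG120 had fewer calls and fewer positions read than the other 4, and 41.5% to 50.5% of their calls were methylated, against 32.6% to 39.2%. Of 4006353 positions, 138110 (3.45%) carried a read in all 8 libraries. Of 24 marker genes of blood, stromal and endothelial cells, 4 (Kit, Cd34, Cd4 and Pdgfrb) had a kept end, so the labelled cell type could not be checked from the windows.

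The developmental factor ends were partly methylated, where most gene ends were not. The median member end had a mean level of 13.5% over the 8 libraries, against 2.37% over all gene ends, and 10 of 52 (19.2%) were under 5%, against 62.9% of all. Levels of 5% to 20% were found at 24 ends (46.2%, against 14.7%) and levels of 20% to 80% at 17 (32.7%, against 14.1%), and 1 end, the tail of Sox8, was over 80% (1.92%, against 8.35%). Gene starts alone gave the same order, with a median of 11.5% at the 29 member starts and 1.95% at all starts. Among windows with at least 40 positions, the medians were 12.1% for members and 1.88% for all. The members were chosen with earlier results known, so these shares describe the list and carry no test.

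**Figure D1:**
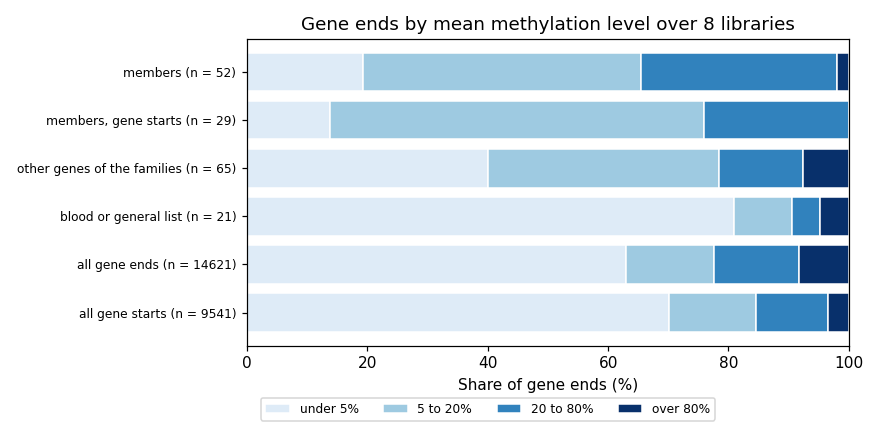
Share of gene ends (horizontal axis, percent) in 4 classes of mean methylation level over the 8 libraries, 1 bar per list, with the number of ends beside its name. Ends under 5% make up 19.2% of the member ends and 62.9% of all gene ends, and 81.0% of the ends on the list of factors active in blood or in most cells.

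By the median, genes of the same families that are not members lay in between. Of 85 such genes 57 had a kept end, and their 65 ends had a median level of 7.89%, with 26 under 5%. A list of 21 family genes active in blood or in most cells, of which 18 had a kept end, had a median of 1.45%, with 17 of 21 ends under 5%. Gata2 and Tal1, which are needed for blood stem cells and progenitors, were at 1.52% and 2.02%, and the bHLH partner Tcf3 was at 0.22%. The exceptions on that list were the tails of Foxp4 and Id2, at 81.9% and 35.6%, Mga at 16.6% and the start of Lyl1 at 6.61%. The lists share 15 genes with 16 ends, so the 65 ends include 16 of the blood list. The other family genes were not summarised without them. By the mean over ends, the 65 ends were at 17.6%, against 18.7% for the members and 16.4% over all gene ends.

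Among the Sox factors, HMG-box proteins that set lineage choices in many tissues, 9 ends of 8 genes were kept. Sox11, a factor of immature neurons, had a start window (chr12:27342218-27343718) at 31.0% and 39.0% in Vehicle, 35.8% and 52.8% with AG120, 46.1% and 32.3% with AZA and 49.5% and 67.3% with the combination, and it was above 30% in every library. Sox17, the endoderm and endothelial factor, was at 19.7% and 39.6% in Vehicle, 21.0% and 9.73% with AG120, 4.24% and 10% with AZA and 29.8% and 78.6% with the combination at its higher end, a range of 74.3 points. Sox2, the pluripotency and neural stem cell factor, ranged from 7.68% to 46.8% at its start, with the extremes in AG120 replicate 2 and combination replicate 2. Sox9, which drives cartilage formation, held to a range from 10.2% to 30.3% at its lower end, and both of these values came from the combination group. Sox4, which acts in B cell development, had a start between 0% and 7.05% and was under 3% in 7 libraries. The listed promoter of Sox4, within this window, carried no read.

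The ends of Sox8, a SoxE factor like Sox9, were the lowest and the highest of all member ends. Its start window (chr17:25570186-25571686) had a mean of 1.08% over the 8 libraries, at 2.83% and 0.80% in Vehicle, 0.0981% and 0.237% with AG120, 0% and 4.65% with AZA and 0% in both combination libraries (upper limits from 0.30% to 2.31%). Its tail window (chr17:25564893-25566393) was at 87.1% and 96.2% in Vehicle, 100% and 99.9% with AG120, 99.8% and 100% with AZA and 89.5% and 66.7% with the combination. Combination replicate 2 was the lowest library and Vehicle replicate 1 the next. That window held 14 positions, none of them read in all 8 libraries, and 36 reads in its shallowest library. The start window overlaps that of Cerox1, a neighbouring noncoding gene.

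The 13 Fox ends, forkhead factors of endoderm, mesoderm and neural crest, included 4 of the 6 highest member ends. Foxd3 had a start window (chr4:99655299-99656799) at 66.8% and 52.3% in Vehicle, 24.4% and 50.8% with AG120, 55.2% and 51.4% with AZA and 45.3% and 43.8% with the combination, with AG120 replicate 1 the only library under 40%. Foxc2, a factor of lymphatic vessels and mesoderm, was at 48.8% and 52.9% in Vehicle, 38.9% and 35.2% with AG120, 42.6% and 23.5% with AZA and 63.2% and 70.1% with the combination at its lower end. The combination libraries were the highest and the Vehicle libraries the next, and neither of these groups overlapped another. The closely placed Foxf1, a factor of gut and lung mesenchyme, was low at its lower end, from 0.828% to 11.1%, and ranged from 1.19% to 41.9% at its higher end.

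Foxe1, the thyroid forkhead, had 31.6% and 51.3% in Vehicle, 53.2% and 50.7% with AG120, 19.4% and 55.5% with AZA and 15.4% and 55.6% with the combination at its lower end. Its higher end ranged from 9.56% to 75%, and both extremes came from the combination libraries. Foxl2 was at a mean of 10.3% at its start, with a range of 10.9 points, and ranged from 0.354% to 32.7% at its tail. Foxc1, which acts with Foxc2 in mesoderm, ranged from 0.912% to 37.4% at its start and from 14.6% to 39.8% at its tail.

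T-box factors, which pattern mesoderm, heart and limb, were lower: 8 of their 11 ends had a mean under 10%. T (Brachyury), the founding factor of mesoderm, was at 6.31% and 13.6% in Vehicle, 6.57% and 10.2% with AG120, 3.10% and 5.19% with AZA and 1.4% and 4.76% with the combination at its start. The 4 libraries with AZA were below the 4 without it. The listed promoter of T lies within this window and carried no read in any library, so these levels come from the cytosines around it. Eomes, which acts in mesoderm and in effector T cells, had from 0% to 12.9% at its start and from 0% to 49.0% at its tail. Its listed promoter, within the start window, carried no read either. Tbx1, the pharyngeal and heart factor, had a mean of 1.91% at its start and 3.76% at its tail, Tbx2 of 3.47% and 4.34% at its lower and higher end. Tbx5, the forelimb and heart factor, ranged from 0% to 16.9%.

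The highest T-box ends were the starts of Tbx4 and Tbx20. The listed promoter of Tbx4 lies within the gene, outside this window, and carried no read. Tbx4, the hindlimb factor, was at 29.2% and 22.3% in Vehicle, 9.70% and 30.5% with AG120, 47.2% and 42.8% with AZA and 22.1% and 62.0% with the combination. Tbx20, a heart factor, was at 0% and 34.6% in Vehicle, 0% and 66.7% with AG120, 0.498% and 29.7% with AZA and 66.7% and 34% with the combination. In Vehicle, AG120 and AZA alike, 1 Tbx20 library had an observed level below 1% and the other 29.7% or more. The 0% of Vehicle replicate 1 and of AG120 replicate 1, from 97 and 47 reads, allows up to 3.09% and 6.38%. The window had 16 positions, with 3 read in the least covered library.

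The bHLH factors, drivers of neurons, muscle and mesenchyme, had 11 kept ends. Olig2, the oligodendrocyte and motor neuron factor, varied most: its tail was at 0% and 66.7% in Vehicle, 50% and 5.98% with AG120, 36.2% and 98.2% with AZA and 31.3% and 0% with the combination. Its start was at 2.24% and 7.10% in Vehicle, 28.7% and 6.68% with AG120, 13.5% and 22.3% with AZA and 1.31% and 0% (upper limit 5.00%) with the combination. The tail spanned 98.2 points over the 8 libraries, the replicates of each group stood far apart, and its window had 3 positions in the least covered library. Hand1, a heart and trophoblast factor, had a mean of 4.99% at its lower and 41.5% at its higher end. Neurog2, a neuronal factor, ranged from 0% to 15% and Twist1, a mesenchymal factor, from 0.963% to 15.9%.

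Among the zinc finger factors, Wt1, a factor of kidney and gonad that is also expressed in acute leukemias, was at 38.5% and 47.8% in Vehicle, 21.3% and 25% with AG120, 46.7% and 34.1% with AZA and 43.7% and 31.2% with the combination at its lower end. Both AG120 libraries were below the other 6. The window overlaps that of the neighbouring gene Wt1os, so its reads count for both. Gli2 and Gli3, the effectors of Hedgehog signalling, had means of 30.4% and 15.8% at their starts, and Zic1, a neural factor, of 14.9%. Zic1 and Zic4 lie head to head and share part of their windows.

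The 2 Gata ends were low. The Gata3 window (chr2:9887453-9888953) was at 25.6% and 5.77% in Vehicle, 0% and 12.9% with AG120 and 0% in the 4 libraries with AZA. Gata6, the endoderm and heart factor, was at 2.72% and 11.7% in Vehicle, 10.1% and 0.87% with AG120, 1.39% and 0% with AZA and 0% with the combination. Of the 4 libraries with AZA, 1 had a methylated read in either window. The Gata3 window is the thinnest of all that were kept, with 5 positions and 35 reads in its shallowest library, where 0 methylated reads allow up to 8.57%. Gata6 shares its window with the noncoding gene Gata6os. The 13 kept ends outside the naming rule, among them Twist2, Atoh1, Foxa1, Foxf2, Neurog1, Foxd1 and Tbx3, had means from 1.37% (Sox4) to 22.8% (Olig1).

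**Figure D2:**
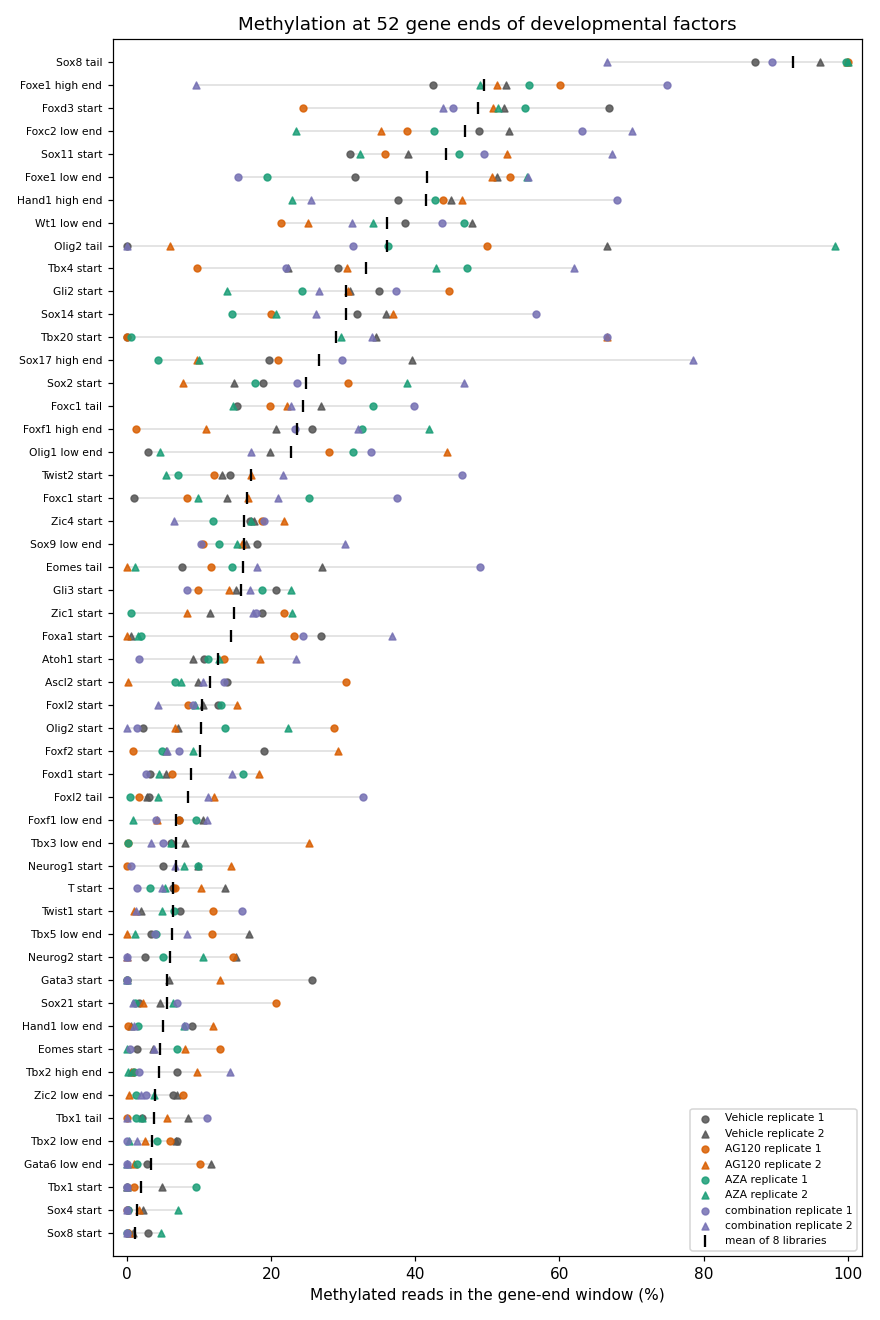
Methylated reads (horizontal axis, percent) at each of the 52 kept member gene ends (rows, sorted by mean), 1 point per library, coloured by group and shaped by replicate, with a bar at the mean of the 8 libraries. The points of a group often lie far apart in a row: 31 of the 52 ends span more than 20 points.

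The spread between libraries was wide and did not follow the groups. Over the 8 libraries the median member end spanned 25.4 points, and 31 of 52 ends (59.6%) spanned more than 20, against 29.5% of all gene ends. Among ends with a mean between 5% and 80% the members spanned less than the rest, with a median of 30.2 points at 41 ends against 37.0 over all gene ends of that level. The median absolute difference was 7.08 points between replicates of a group and 7.01 points between libraries of different groups. Of the 5 windows with the most positions (222 to 297), the lower end of Foxf1, the Foxl2 start, Gli3 and Zic2 spanned 10.2, 10.9, 14.4 and 7.55 points, and Sox11 spanned 36.4.

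Within a window the libraries read largely different cytosines. A pair of libraries of the same group shared 44.9% of the positions they read in the member windows (35.1% to 52.8% over 4 pairs), and a pair from different groups shared 43.1% (36.2% to 54.4% over 24 pairs). Of 5422 positions in the member windows, 249 (4.59%) were read in all 8 libraries, and 23 of the 52 ends (44.2%, against 43.2% of all) had no such position. Within a library, values of single cytosines were mostly 0% or 100%. Of 12884 values with at least 10 reads, 72.6% were exactly 0%, 10.4% were 100% and 6.92% were between 20% and 80%. Over all gene ends these shares were 86.6%, 6.25% and 2.74%. The same cytosine could differ between replicates. In the Zic4 window, chr9:91364793 was at 0% and 100% in Vehicle and at 100% and 0% with the combination. The part of this uneven sampling in the spread of the window levels was not tested.

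**Figure D3:**
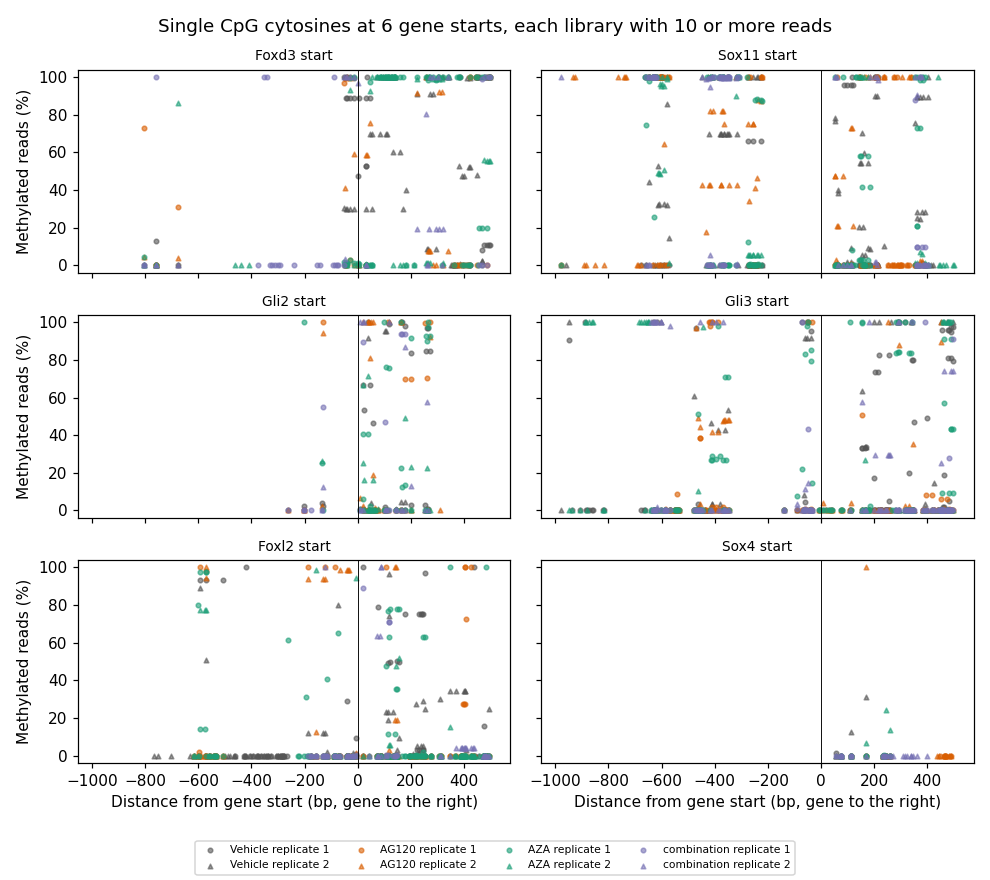
Methylated reads (vertical axis, percent) at single CpG cytosines by distance from the gene start (horizontal axis, bp, with the gene to the right) for 6 gene starts, 1 point per cytosine and library with at least 10 reads, coloured by group and shaped by replicate. Values gather at 0% and at 100%, as in 72.6% and 10.4% of the values over all member windows, and libraries differ in which stretches they cover.

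By distance, the level at the member starts was highest in the bin farthest upstream. From 1000 to 501 bp before the start the median library was at 23.5% (15.6% to 35.0% over the 8 libraries), from 500 bp to the start at 15.4% (10.7% to 26.8%) and over the first 500 bp of the gene at 15.3% (10.7% to 18.7%). The library ranges overlap, and 9 to 13 ends fed the outermost bin in a library.

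The mean level over the 52 member ends was 16.4% and 20.1% in Vehicle, 17.7% and 18.9% with AG120, 16.8% and 17.6% with AZA and 22.2% and 19.5% with the combination. The group means were 18.3% ± 2.62 (SD, n = 2), 18.3% ± 0.854, 17.2% ± 0.581 and 20.8% ± 1.95, and over all gene ends 16% ± 0.297, 16.9% ± 0.938, 15.6% ± 0.533 and 17.0% ± 0.377. The combination had the highest group mean, but Vehicle replicate 2 was above combination replicate 2. By family, the 9 Sox ends averaged 29.6% and 35.2% in the combination libraries, against 21.8% to 27.7% in the other 6, and the 13 Fox ends 29.2% and 26.0%, against 19.5% to 24.4%. The T-box ends averaged 14.6% and 13.6%, against 5.49% to 14.4%, and the bHLH and zinc finger means of the combination libraries lay within the range of the others. The 2 Gata ends went the other way, with 0% in both combination libraries against 0% to 14.2% in the other 6. These family means describe a few ends each, and the combination libraries were also the shallowest in calls.

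**Figure D4:**
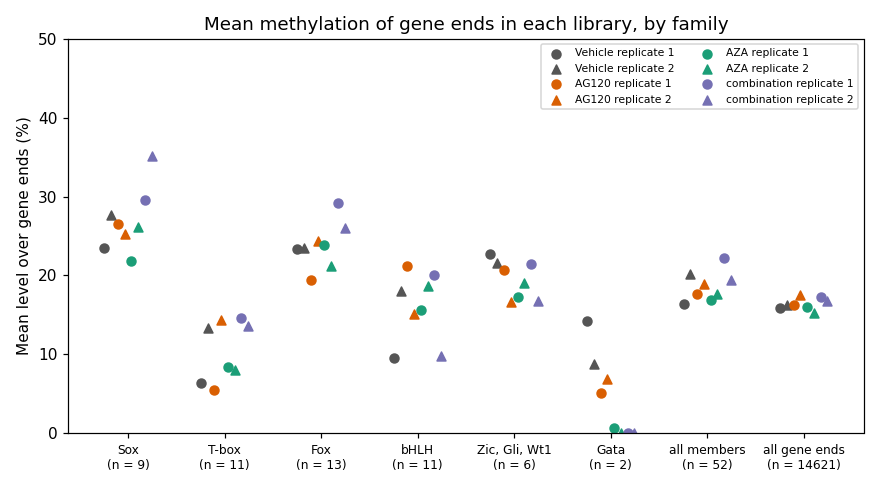
Mean methylation level over gene ends (vertical axis, percent) in each library, by family, for all members and for all gene ends, 1 point per library coloured by group and shaped by replicate, with the number of ends under each name. The combination libraries are the highest pair for the Sox (29.6% and 35.2%) and Fox ends (29.2% and 26.0%), and over all members they reach 22.2% and 19.5%. For the 2 Gata ends both are at 0%.

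The question for each drug was whether the treated libraries differed from Vehicle, and for the combination also whether they differed from each drug alone. No gene end passed an adjusted p of 0.05 in any of the 5 pairwise comparisons by edgeR's quasi-likelihood F-test, with Benjamini-Hochberg adjustment over 14565 gene ends, so 0 of 52 member ends were called (0% of all gene ends in each comparison). The average effect of AG120, the average effect of AZA and the interaction of the drugs gave 0 calls too (0% each).

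With AG120 against Vehicle, the member ends had a median difference of −0.07 points (−0.07 over all gene ends), with 25 higher and 27 lower, and 2 differed by more than 20 points either way (5.75% of all gene ends). At 6 ends both AG120 libraries were above both Vehicle libraries (12.6% of all gene ends) and at 8 they were below (20.3%). Among the lower were Wt1, at 23.2% ± 2.61 against 43.2% ± 6.59 (SD, n = 2), and the higher end of Foxf1, at 6.03% ± 6.84 against 23.2% ± 3.53. The largest difference upward was at Olig1, an oligodendrocyte factor, with 36.2% ± 11.5 against 11.4% ± 12. Foxf1 had an unadjusted edgeR p of 0.273 and an adjusted p of 1. Among the 6 zinc finger ends, Wt1 included, the smallest unadjusted edgeR p was 0.383.

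With AZA against Vehicle, the median difference was −2.48 points (−0.15 over all gene ends), with 21 member ends higher and 31 lower, and 2 differed by more than 20 points (5.12% of all gene ends). The groups did not overlap at 5 ends that were higher (12.8% of all gene ends) and 12 that were lower (19.9%). Summed over positions read in all 8 libraries, which left 19 member ends, the median was 2.36 points, and it was −0.91 and −0.60 points without Vehicle replicate 1 or 2. Among the lower were Sox17, at 7.13% ± 4.08 against 29.6% ± 14.0, Gata3, at 0% against 15.7% ± 14.0, and T, at 4.15% ± 1.48 against 9.93% ± 5.13. Tbx4 was higher, at 45.0% ± 3.08 against 25.8% ± 4.91. Gata3 had an unadjusted edgeR p of 0.0641 and an adjusted p of 1, and averaged over both AZA contrasts an unadjusted p of 0.0426 and an adjusted p of 1.

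With the combination against Vehicle, the median difference was −0.38 points (−0.19 over all gene ends), with 25 ends higher and 27 lower, and 5 differed by more than 20 points (6.97%). The combination lay above Vehicle at 6 ends (11.5% of all gene ends) and below it at 12 (25.8%). The 6 were Twist2, Sox2, Foxc2, the Foxl2 tail, Sox11 and the Foxc1 start, by 15.7 to 23.5 points. Sox11 was at 58.4% ± 12.6 against 35.0% ± 5.65, and Foxc2 at 66.6% ± 4.93 against 50.9% ± 2.90. The 12 lower ends included Foxd3, by −15 points, and the smallest p was that of Gata3 (unadjusted edgeR p of 0.0853, adjusted p of 0.948).

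The combination was compared with each drug alone, with shared libraries, so the 2 results are not independent. Against AZA, the median difference was 0.09 points (−0.02 over all gene ends), 12 ends lay above (12.9%) and 11 below (20.5%), and 9 differed by more than 20 points either way (7.86%). Sox17 was at 54.2% ± 34.5 against 7.13% ± 4.08, and the Olig2 tail at 15.6% ± 22.1 against 67.2% ± 43.9. Against AG120, the median difference was −0.31 points (−0.02), 9 ends lay above (12.2%) and 7 below (17.5%), and 6 differed by more than 20 points (7.5%). Foxc2 was at 66.6% ± 4.93 against 37.0% ± 2.61, and T at 3.08% ± 2.37 against 8.37% ± 2.55. In this comparison the smallest unadjusted edgeR p was 0.228 among the 13 Fox ends and 0.192 among the 11 T-box ends.

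**Figure D5:**
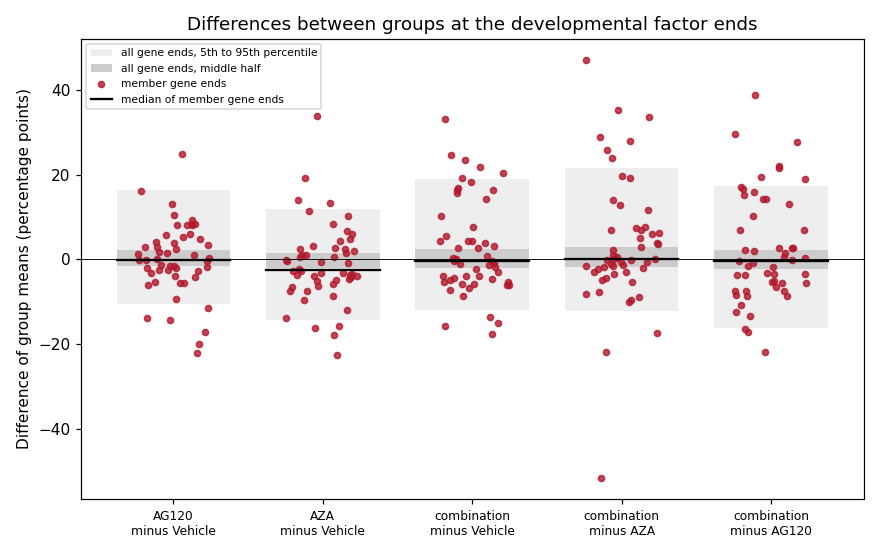
Difference of group means (vertical axis, percentage points) at the 52 member gene ends in the 5 comparisons (horizontal axis), 1 point per end, with a line at the members' median and grey bands for the middle and the 5th to 95th percentile of all gene ends. The medians lie between −2.48 and 0.09 points, and single ends reach from −51.6 to 47.0 points in the comparison of the combination with AZA.

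At an unadjusted edgeR p under 0.05 the member ends counted 1 of 52 with AG120 against Vehicle (3.25% of all gene ends), 0 with AZA against Vehicle (2.4%), 0 with the combination against Vehicle (5.2%), 1 against AZA (4.77%) and 1 against AG120 (4.65%). The single end was the Sox8 tail each time. For the average effects the counts were 0 of 52 with AG120 (4.77%) and 1 with AZA, the Gata3 end (3.53%). At the Sox8 tail the edgeR quasi-likelihood p was 0.0316, 0.0236 and 0.0135 in its 3 pairwise comparisons, and the adjusted p was 1 in all 3. In the interaction the Sox8 tail was the 1 member (2.8% of all gene ends), with a quasi-likelihood p of 0.00432 and an adjusted p of 1. The level of the Sox8 tail was 91.6% ± 6.40 in Vehicle, 100% ± 0.0566 with AG120, 99.9% ± 0.16 with AZA and 78.1% ± 16.2 with the combination (SD, n = 2). The Sox8 tail passed for the combination against AG120 in edgeR's likelihood ratio test (adjusted p = 0.0274) and in DESeq2 (adjusted p = 0.0284), which called 1.41% and 1.68% of all gene ends, and not in limma (adjusted p = 0.645). For the interaction it passed in the likelihood ratio test (adjusted p = 0.00669, 0.453% of all gene ends) and in DESeq2 (adjusted p = 0.00918, 0.604%), and not in limma (adjusted p = 0.921). No other member end was called by any of these tools in any of the 8 contrasts. In the contrasts with 0 members called, the likelihood ratio test called 0.0206% of all gene ends for AG120, 0% for AZA and 1.41% for the combination against Vehicle, 0.982% for the combination against AZA, 1.86% for the average AG120 effect and 1.06% for the average AZA effect. DESeq2 called 0.0137%, 0%, 0.975%, 0.934%, 2.43% and 1.29% in the same order, and limma called 0% in all 8 contrasts. With the window extended to 2000 bp outside, the difference between combination and AG120 at the Sox8 tail fell from −21.9 to −8.63 points, and without combination replicate 2 it was −10.4 points.

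Ends without any methylated read were most frequent with the combination. They numbered 3 and 0 of 52 in Vehicle, 5 and 5 with AG120, 2 and 3 with AZA and 7 and 9 with the combination. Over all gene ends the shares had the same order at the top, at 30.4% and 28.7% in the combination libraries against 9.79% to 22.9% in the other 6. The combination libraries had the fewest reads per member end, with medians of 1627 and 1372, against 1663 to 3349 in the others. With every end thinned to its shallowest library, the expected numbers were 4.60 and 1.72 in Vehicle, 7.64 and 6.54 with AG120, 6.14 and 5.57 with AZA and 7.74 and 9 with the combination. Thinning matched the reads of each end and not the positions read.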

How the data were processed

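RRBS was read in 8 libraries of 4 groups. The table holds counts of methylated and unmethylated reads per CpG cytosine, raw and with the strands separate, per the file headers; all count columns were used and 0 were left out. Per the submitters' processing notes the tools included Bismark 0.22.3, edgeR 3.32, Trim Galore 0.4.4, bcl2fastq 2.17.1.14 and SAMtools 1.4.1, and the build was mm10. How duplicates were treated is not given in the sources used here. Counts were summed per gene end (RefSeq genes, GRCm38.p6) with Python 3.11.15. All 8 libraries entered 1 edgeR 4.0.16 robust quasi-likelihood fit in R 4.3.3 (1 term for each library, 1 methylation term for each group), two-sided, adjusted by Benjamini-Hochberg; 14565 of the 14621 ends had both kinds of reads and were fitted. Alternatives were edgeR's likelihood ratio test, DESeq2 1.42.0, limma 3.58.1 (log2 ratios, pseudocount 2), a replicate block, other read minimums, windows and weightings, and leaving out each library. PCR reads are not independent molecules, so upper limits cover counting error only, and p-values measure only the spread between these libraries. The members and lists were chosen with earlier results of these data known. Ends were named by rule: the 12 with the highest mean, the 6 with the largest range, the 3 with the smallest p per comparison, genes with both ends kept and family representatives. Ascl2, Sox14 and Sox21 were shown for their promoter, and Atoh1, Foxa1, Foxd1, Foxf2, Neurog1, Olig1, Sox4, Tbx3, Twist2, Zic2 and Zic4 were named after their values were seen.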

Additional observations from a re-analysis of the deposited data

How the results depend on the processing

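The edgeR quasi-likelihood count of 0 called gene ends, members included, also held with limma, with the replicate block, in the fits of 2 groups alone and at the other windows, read minimums and ends per gene. In order of the 5 comparisons, the average AG120 effect, the average AZA effect and the interaction, the likelihood ratio test called 3, 0, 206, 143, 205, 271, 155 and 66 gene ends and DESeq2 2, 0, 142, 136, 245, 354, 188 and 88, of which 1 member, the Sox8 tail, for the combination against AG120 and 1 for the interaction. Positions read in all 8 libraries, an alternative chosen after seeing the data, gave 1 call for the average AG120 effect, and leaving out 1 library gave 0 to 1 for it and for AG120 against Vehicle, the 1 being without AG120 replicate 1, where the lone library is assumed to vary like the other groups. No pairing of the libraries by replicate number was detected (correlation of deviations −0.0134 to 0.00427). As libraries read largely different cytosines, this cannot show that they are unpaired. The replicate block gave 0 calls in all 8 contrasts.

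The signs of the members' median differences were not stable. On positions read in all 8 libraries the medians were 2.40 points for AG120 and 2.36 for AZA against Vehicle, and 2.81 and 2.35 for the combination against AZA and AG120. The unweighted mean over positions left 6 ends and gave −4.87, −6.50, −4.01, 1.49 and 1.48 in the 5 comparisons. AZA against Vehicle was −1.06 with 1 position and 10 reads and from −2.62 to −0.597 with 1 library left out. The combination was from −1.55 to 0.853 against Vehicle, −0.318 to 1.20 against AZA and −0.617 to 1.36 against AG120 with 1 library left out, and 0.677 (500 bp outside) and 2.34 (2000 bp) against AZA and 1.44 (2000 bp) against AG120. Leaving out single libraries moved AG120 against Vehicle from −1.20 to 0.72.

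Mean levels moved by more than their SD under several settings. Positions read in all 8 libraries gave 13.5%, 17.3%, 16.6% and 18.8% in Vehicle, AG120, AZA and the combination. AG120 and AZA were 20.1% and 18.9% with 1 position and 10 reads, 17.2% and 16.2% with 5 positions and 100 reads, and 15.8% and 20.2% unweighted; AG120 was 19.7% with 2000 bp and AZA 16.3% with 500 bp. With 1 end per gene AG120, AZA and the combination were 16.3%, 13.9% and 18.9%. Ends without a methylated read averaged 3.16 in Vehicle and 5.86 with AZA after thinning, 0.5, 2.5, 1 and 3.5 in the 4 groups with 5 positions and 100 reads, and 0 to 3 in Vehicle with 1 library left out. Of the recomputed differences at named ends 98 stayed within 1 SD of the reported value and 17 moved further. Depth limits the thin windows most: Gata3 and the Sox8 tail rest on 35 and 36 reads in their shallowest library.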
